A study of Mus musculus with 2 samples.

Results

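The genes described here code for matrix metalloproteinases (Mmp), the related Adam and Adamts proteases, their tissue inhibitors (Timp), and the membrane peptidases Fap and Dpp4. They were taken by name from the probe annotation of the array, which gave 72 genes out of 28781, read by 128 of 41168 probes. Well above background were 50 of the 72, 44 on both arrays and 6 on 1 of them, and the remaining 22 were not above background on either. Expression was measured on 1 array for each of 2 mouse neural progenitor lines of strain 129/Ola. Both lines descend from N31, neural progenitors made from induced pluripotent stem cells with doxycycline-inducible transgenes for c-Myc, Klf4, Sox2 and Oct3/4 (primary stem cells that had been induced from NSEB5-2C), and both had received doxycycline for 24 h. One line overexpressed EGFP, a fluorescent protein taken here as the reference, and the other Pax6, a transcription factor of eye and forebrain, each from the broadly active CAG promoter on a Tol2 transposon. The labels do not say whether a line was 1 clone or a pool, and neither array was of cells without doxycycline. At this time the EGFP line had altered its morphology and the Pax6 line had not.

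Matrix metalloproteinases are zinc enzymes that cut collagens and other matrix proteins outside the cell, and most are secreted as inactive precursors. Adam proteases sit in the membrane and release the outer parts of growth factors, adhesion molecules and receptors, a step called shedding, while Adamts proteases are secreted and cut proteoglycans and procollagens. Timp proteins bind the active site of these enzymes and block it. In neural tissue the families act in progenitor migration, in remodelling of the perineuronal matrix and in Notch receptor cleavage.

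On the Pax6 array the stromelysin gene Mmp10, the collagenase gene Mmp1a and the proteoglycanase gene Adamts9 were between 2.52-fold and 3.13-fold higher than on the EGFP array. Fap, not above background on the EGFP array, was 19.2-fold higher when set against the lowest EGFP signal above background. Mmp28, Adam33 and Adam19 were 6.04-fold, 3.15-fold and 2.06-fold lower. With another background correction (normexp with an offset and quantile normalization) Fap, Mmp10 and Mmp28 stayed past 2-fold, Fap with a log2 difference of 1.92, and Mmp1a (0.77), Adamts9 (0.97), Adam33 (-0.44) and Adam19 (-0.89) did not. The sheddase genes Adam10 and Adam17, the gelatinase gene Mmp2, the 4 membrane-type Mmp genes above background and all 4 Timp genes were within 2-fold. With 1 array per line there is no replicate and no p-value, so "higher" and "lower" describe these 2 arrays, and genes were counted by a fixed size of at least 2-fold. The error after ± is the scanner software's measurement error of the log2 difference, and it does not cover differences between cultures.

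The arrays were of similar quality. No spot was saturated, the share of spots well above background was 64.7% for EGFP and 67.2% for Pax6, and 8 spike-in controls differed by -0.05 to 0.09 on the log2 scale. Signals below are the scanner's processed signals, and every difference is taken after dividing each array by its 75th percentile, 854 for EGFP and 991 for Pax6. A pair of signals is given in the order EGFP, Pax6. A gene is read by its brightest probe. The brightest Pax6 probe was 0.35 ± 0.20 higher on the Pax6 array, and the labels do not say whether it reads the transgene, so it is no check of them. Of 10 neural progenitor markers 9 were above background, 5 with a difference above 0 and 4 below, with a median of 0.03. Of the 9, 7 were within 2-fold and 2 were lower, with Nes, the gene of nestin, 3.17-fold lower and Slc1a3 12.9-fold lower on the Pax6 array, Vim, the gene of vimentin, at 0.13, and Hes5 above background on neither array. Among all genes above background 2.36% were at least 2-fold lower.

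By the 2-fold rule 4 of the 50 genes above background were higher with Pax6 and 3 were lower. Among all 19241 genes above background, 2.35% were at least 2-fold higher, 2.36% at least 2-fold lower and 4.71% either. The 7 genes are 14% of the 50. The median log2 difference of the 50 was -0.07, beside -0.01 for all genes, and the median size of the difference regardless of sign was 0.33, beside 0.18. The median of the group thus lay near 0 while its differences ran in both directions, with 23 genes above 0 and 27 below. The difference was within its own measurement error in 16 of the 44 genes above background on both, beside 10513 of 17831 among all genes. The nearest genes inside the size rule were Adam19 (2.06-fold) and Mmp1a (2.52-fold), and the nearest outside were Adamts1 (1.89-fold), Adamts8 and Adamts5 (both 1.86-fold).

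**Figure D1:**
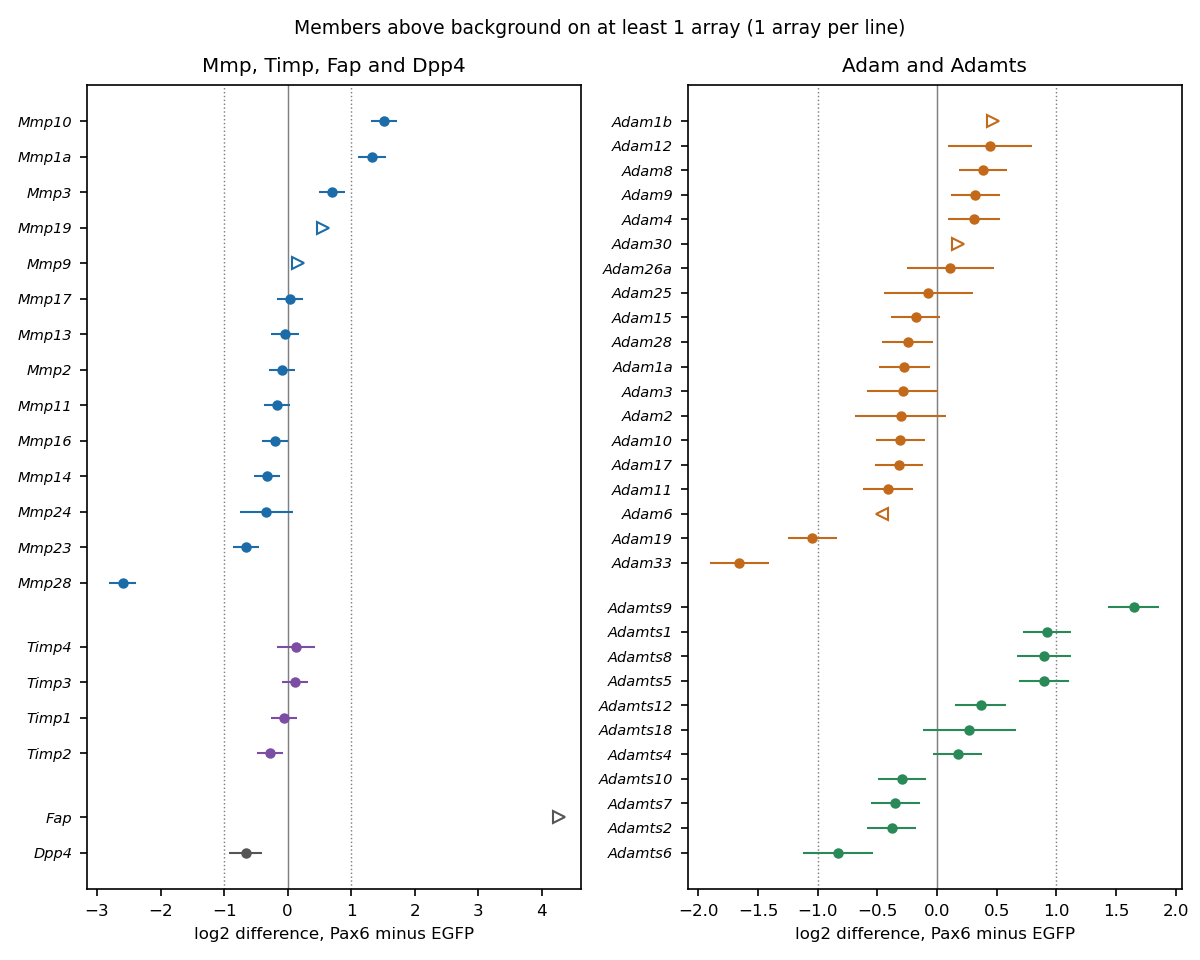
Log2 difference of Pax6 minus EGFP for the 50 genes above background on 1 or both arrays, with 1 array per line. Filled points are genes measured on both arrays and bars their measurement error, and dotted lines mark 2-fold. Open triangles are genes above background on 1 array only and point in the direction of the difference. Their values are taken against the lowest signal above background or the dim value, whichever was higher, and are drawn without their error. Fap, Adamts9, Mmp10 and Mmp1a lie beyond the right line and Mmp28, Adam33 and Adam19 beyond the left one, while the 4 Timp genes lie between -0.27 and 0.13.

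**Figure D2:**
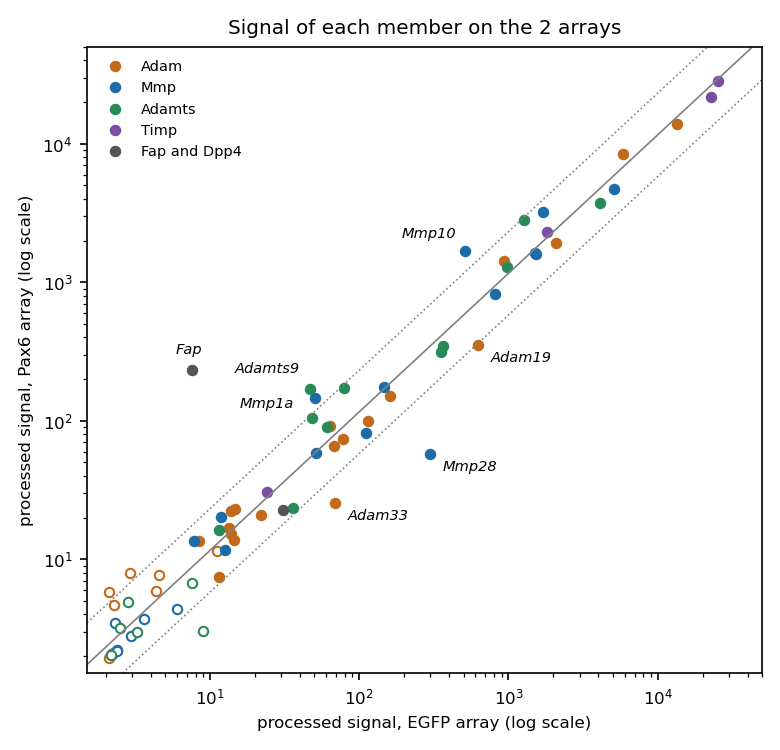
Processed signal of each of the 72 genes on the EGFP array (horizontal) and on the Pax6 array (vertical), both on log scales. Filled points are above background on 1 or both arrays and open points on neither, the solid line marks equal values after scaling and the dotted lines 2-fold. The 7 labelled genes lie outside the dotted lines, and the open points lie at the dim end.

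Mmp10, Mmp1a and Mmp3 lie side by side in a cluster of Mmp genes on chromosome 9. Mmp10, the gene of stromelysin 2, an enzyme that cuts several matrix proteins and activates other Mmp precursors, had signals of 507 and 1691 (probe at chromosome 9, 7508134 to 7508193, build mm7). Its log2 difference was 1.52 ± 0.20, or 2.87-fold. Mmp1a, one of the interstitial collagenase genes of the mouse, had signals of 50.2 and 147 (7474681 to 7474740). The difference of 1.33 ± 0.22, or 2.52-fold (0.77 with normexp), was accompanied by 0.91 ± 0.22 at its other probe, with signals of 44.5 and 97.3. Mmp3, the gene of stromelysin 1, had signals of 1703 and 3219 and differed by 0.70 ± 0.20, or 1.63-fold. All 3 were higher on the Pax6 array by more than their measurement error, and Mmp3 by less than 2-fold. Mmp13, a collagenase gene at the end of the cluster and 174 kb from the Mmp3 probe, had signals of 51.4 and 58.2 and differed by -0.04 ± 0.22.

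The other cluster genes with probes were not above background on either array. These were Mmp12, the gene of macrophage elastase, with signals of 2.30 and 3.49, Mmp8, the gene of neutrophil collagenase (2.40 and 2.18), the enamel protease gene Mmp20 and the matrilysin gene Mmp7 (3.63 and 3.69). The cluster thus held 4 genes above background, of which 3 were higher on the Pax6 array and 1 was level. Outside it, 3 of 10 Mmp genes above background had a difference above 0, 2 of these being bounds, and none was at least 2-fold higher. Beyond Mmp13, the neighbouring genes Dcun1d5 and Dync2h1 differed by 0.09 ± 0.20 and -0.21 ± 0.20. Mmp1b and Mmp27, which belong to the cluster, were not analysed here.

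**Figure D3:**
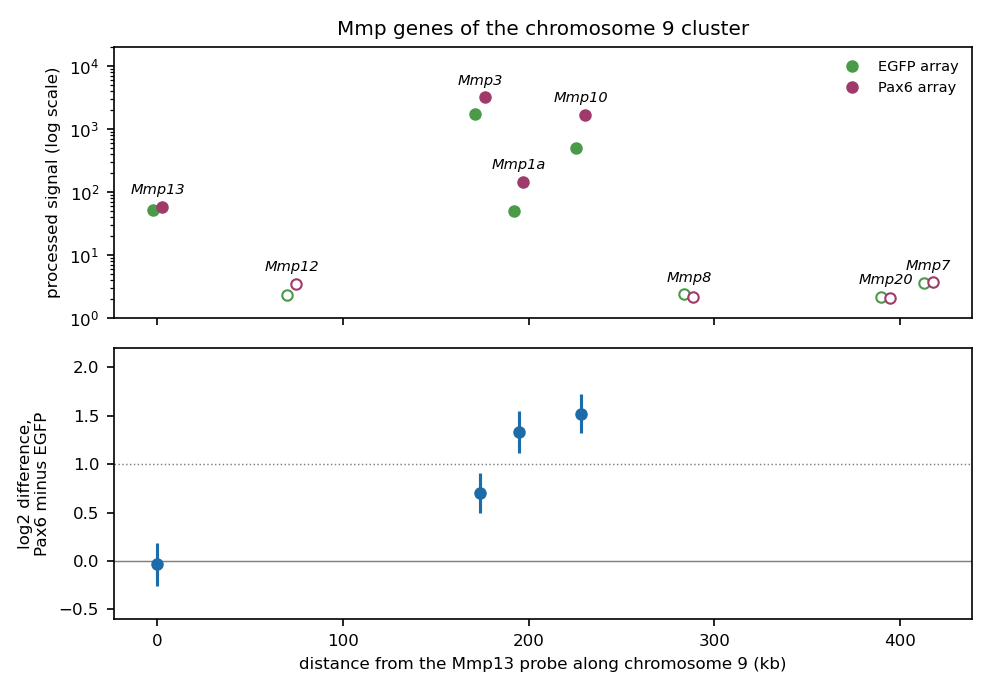
Top, processed signal (log scale) of the 8 Mmp genes of the chromosome 9 cluster on the EGFP and Pax6 arrays, open where not above background. Bottom, log2 difference of Pax6 minus EGFP with measurement error for the 4 genes above background, plotted by distance in kb from the Mmp13 probe. Mmp3, Mmp1a and Mmp10, at 174, 195 and 228 kb, are higher on the Pax6 array and Mmp13 at 0 is not, and the dotted line marks 2-fold.

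Because these neighbouring genes differed together except for Mmp13, the promoter windows of the 4 expressed cluster genes are shown, from 250 bases before to 50 bases after the annotated start (RefSeq, build GRCm38.p6, plus strand, 5′ to 3′). The capitals mark matches to TGANTCA, where N is any base. This pattern takes in TGAGTCA and TGACTCA, the sites of AP-1, a Fos and Jun transcription factor known to act at Mmp promoters. It is looser than these sites, which were not counted apart.
Mmp10 (chr9:7502092-7502391): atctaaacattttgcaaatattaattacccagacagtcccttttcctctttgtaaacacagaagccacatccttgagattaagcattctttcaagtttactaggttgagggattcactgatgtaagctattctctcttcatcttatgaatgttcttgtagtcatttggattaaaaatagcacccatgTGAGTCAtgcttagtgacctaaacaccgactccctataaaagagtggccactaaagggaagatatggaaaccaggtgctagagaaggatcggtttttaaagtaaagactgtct
Mmp1a (chr9:7463891-7464190): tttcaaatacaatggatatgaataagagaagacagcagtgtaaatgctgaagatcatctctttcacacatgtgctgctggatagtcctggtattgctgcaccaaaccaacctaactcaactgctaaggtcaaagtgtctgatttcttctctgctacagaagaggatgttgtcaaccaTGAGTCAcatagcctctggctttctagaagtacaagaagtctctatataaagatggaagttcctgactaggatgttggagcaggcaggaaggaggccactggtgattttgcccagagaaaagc
Mmp3 (chr9:7445572-7445871): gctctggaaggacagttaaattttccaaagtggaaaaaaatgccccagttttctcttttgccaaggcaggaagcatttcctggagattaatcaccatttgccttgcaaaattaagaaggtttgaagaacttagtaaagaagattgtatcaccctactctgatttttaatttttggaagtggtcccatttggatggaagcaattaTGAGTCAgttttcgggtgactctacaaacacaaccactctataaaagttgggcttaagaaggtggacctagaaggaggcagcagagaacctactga
Mmp13 (chr9:7272264-7272563): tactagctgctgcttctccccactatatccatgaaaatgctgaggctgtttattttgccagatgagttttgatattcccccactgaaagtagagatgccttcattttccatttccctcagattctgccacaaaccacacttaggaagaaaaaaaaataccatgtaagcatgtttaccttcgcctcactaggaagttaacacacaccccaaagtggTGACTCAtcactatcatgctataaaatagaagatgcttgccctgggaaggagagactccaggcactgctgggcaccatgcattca

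Each window held 1 match, which began at position -63 from the annotated start in Mmp10, -73 in Mmp1a, -46 in Mmp3 and -35 in Mmp13. The match was therefore present in the gene that was level between the arrays as well as in the 3 that were higher on the Pax6 array. Windows were found for 41 of the 72 genes (46 windows, as some genes have several starts). TGANTCA, which reads the same pattern on both strands, occurred in 7 of the 10 windows of the chromosome 9 cluster, and these belonged to 7 of its 8 genes, expressed or not. Outside the cluster it occurred in 4 of 36 windows (11.1%), beside 7.81% of all 32851 windows of the same length. Among the genes at least 2-fold different, Mmp10, Mmp1a and 1 of the 3 windows of Adam19 held it, and the windows of Adamts9 and Mmp28 did not. Fap and Adam33 had no window, so none of the motif searches covers them. The Ets-type PEA3 site AGGAAG, searched on both strands, was in 45.7% of the 46 windows and 35.4% of all windows. TTCACGC, a core of the paired-domain site of Pax6, was in 0 of the 46 windows on either strand and in 1.26% of all windows. These are matches of letters and not shown binding sites.

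Among the other Mmp genes, Mmp28 stood apart. Mmp28 codes for epilysin, a secreted enzyme of skin and other epithelia. Its brighter probe (chromosome 11, 83531896 to 83531955) had signals of 300 and 57.6 and differed by -2.59 ± 0.21, or 6.04-fold lower (-1.73 with normexp). That probe was designed on a cDNA clone outside RefSeq, and the other probe, on the RefSeq transcript (83512543 to 83512602), was not above background on either array, with signals of 2.30 and 2.64. The value for Mmp28 therefore rests on 1 of its 2 probes. Of its RefSeq neighbours, 1700020L24Rik and Taf15 differed by -0.17 ± 0.21 and -0.15 ± 0.20.

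The gelatinases cut denatured collagen and basement membrane collagen. Mmp2 had signals of 1496 and 1637 and differed by -0.08 ± 0.20. Mmp9 was close to background. Its brighter probe read 7.79, not above background, and 13.5. Against the lowest EGFP signal above background the difference was 0.17 ± 0.62, or 1.12-fold. Its second probe, with 9 spots kept, gave a mean signal of 8.27 and 10.2, with 1 and 3 spots above background, and an SD of the spot differences of 0.54. Neither gelatinase differed beyond its error on these arrays.

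The membrane-type Mmp genes code for enzymes anchored at the cell surface, of which Mmp14 activates the Mmp2 precursor. Mmp14 had signals of 5128 and 4728 and differed by -0.33 ± 0.20, and its second probe by -0.24 ± 0.21. Mmp16, expressed in brain, had signals of 814 and 824, a difference of -0.20 ± 0.20. Mmp17 had signals of 146 and 175 and differed by 0.04 ± 0.21, with 0.45 ± 0.22 at its second probe. Mmp24, an enzyme gene of neurons, was dim, with signals of 12.7 and 11.6 and a difference of -0.34 ± 0.41. All 4 were within 2-fold, with differences from -0.34 to 0.04, and Mmp15 and Mmp25 were not above background on either array.

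The remaining Mmp genes above background were Mmp11, Mmp19 and Mmp23. Mmp11, the gene of stromelysin 3, had signals of 1540 and 1592 and differed by -0.17 ± 0.20. Mmp23 had signals of 110 and 81.3 and differed by -0.66 ± 0.21, or 1.58-fold lower (-0.33 with normexp). Mmp19 was above background on the Pax6 array only, with signals of 11.8 and 20.2, a difference as measured of 0.56 ± 0.40, or 1.48-fold. Mmp21 was not above background on either array.

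The Adamts proteases fall into groups by substrate, and the proteoglycanases, which cut aggrecan, versican and related proteoglycans, were all above 0. Of 7 genes in this group 5 were above background, and their differences ran from 0.17 to 1.65 with a median of 0.90. Adamts9 had signals of 46.5 and 169 (chromosome 6, 92861199 to 92861258) and differed by 1.65 ± 0.21, or 3.13-fold (0.97 with normexp). Its other probes were dim, with 0.73 ± 0.36 at signals of 15.5 and 29.8, and 0.17 ± 0.35 at signals of 15.2 and 19.9, so the size of its difference depends on the probe. Adamts1, the best-known secreted protease of the group, had signals of 1272 and 2795 and differed by 0.92 ± 0.20, with 0.97 ± 0.21 at its second probe. Adamts5, the gene of a cartilage aggrecanase, had signals of 79.5 and 172 and differed by 0.90 ± 0.21 (0.65 with normexp). Adamts8 had signals of 48.1 and 104 and differed by 0.90 ± 0.22 (0.55 with normexp), with 0.66 ± 0.28 at its second probe. These 4 genes were higher on the Pax6 array by more than their measurement error, and 3 of them fell just short of 2-fold. Adamts4, another aggrecanase gene, had signals of 984 and 1285 and differed by 0.17 ± 0.20, within its error. Adamts15 and Adamts20 were not above background.

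Adamts1 and Adamts5 are direct neighbours on chromosome 16 in the RefSeq gene order. The genes on either side, App and N6amt1, differed by -0.07 ± 0.20 and 0.15 ± 0.20, and Cyyr1, which lies between App and Adamts1, was not above background. Around Adamts8 the genes Snx19 and Zbtb44 differed by -0.03 ± 0.20 and 0.10 ± 0.20, St14, the gene of the membrane protease matriptase, differed by 0.74 ± 0.21, and the adjacent Adamts15 was not above background. Around Adamts9, Prickle2 differed by -0.53 ± 0.21 and Magi1 by 0.10 ± 0.20. None of these flanking genes reached 2-fold.

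The other Adamts genes were within 2-fold. Adamts2, which removes the amino-terminal propeptide of procollagens, had signals of 352 and 313 and differed by -0.38 ± 0.20. Its second measured probe gave -0.85 ± 0.38. Adamts7, a protease gene of cartilage and vessel wall, had signals of 4126 and 3752 and differed by -0.35 ± 0.20, with -0.29 ± 0.20 at its second probe. Adamts6 was dimmer, with signals of 35.9 and 23.4 and a difference of -0.83 ± 0.30, or 1.78-fold lower (-0.15 with normexp). Adamts10, Adamts12 and Adamts18 differed by -0.29, 0.37 and 0.27, and Adamts3, Adamts13, Adamts16 and Adamts19 were not above background.

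The Adam genes were grouped by where they are known to act. In the group of 9 active proteases that are expressed beyond the testis, all 9 genes were above background, 2 were at least 2-fold lower on the Pax6 array, 0 at least 2-fold higher and 7 within 2-fold, with a median of -0.25. Among all genes above background 2.36% were at least 2-fold lower and 2.35% at least 2-fold higher. Adam19, an Adam gene of developing heart and nervous system whose protein can shed neuregulins, had signals of 628 and 353 (chromosome 11, 46103663 to 46103722), a difference of -1.04 ± 0.20 (-0.89 with normexp and -0.96 with median scaling). Its second probe gave -1.11 ± 0.20 at signals of 517 and 279, and a dimmer probe gave 0.06 ± 0.33 at signals of 17.9 and 21.7. Adam33 had signals of 68.7 and 25.3 (chromosome 2, 130798571 to 130798630) and differed by -1.66 ± 0.24, or 3.15-fold lower (-0.44 with normexp). Its second probe, at signals of 50.9 and 31.7, gave -0.90 ± 0.23, and its other probe was not above background. For both genes the 2 brightest probes were lower on the Pax6 array, although for Adam33 their sizes differed by more than their errors. Around Adam33 the genes Gfra4, Atrn and Hspa12b differed by -0.34 ± 0.21, 0.16 ± 0.20 and 0.21 ± 0.20, and the adjacent Siglec1 was not above background. Around Adam19 the genes Nipal4 and Cyfip2 differed by 0.17 ± 0.30 and -0.71 ± 0.22, and the adjacent Sox30 was not above background.

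The main sheddase genes were within 2-fold. Adam10, the principal sheddase of Notch receptors and cadherins, had signals of 162 and 152 and differed by -0.31 ± 0.21. Adam17, which releases TNF and ligands of the EGF receptor, had signals of 2070 and 1923, a difference of -0.32 ± 0.20, with -0.22 ± 0.20 at its second probe. Adam9 had signals of 5814 and 8423 and differed by 0.32 ± 0.20, and Adam15 had signals of 13570 and 13912 and differed by -0.18 ± 0.20. Adam8, known from immune cells, had signals of 933 and 1414 and differed by 0.39 ± 0.20. Adam12, an Adam gene of muscle and mesenchyme, was dim with signals of 14.6 and 23.1 and a difference of 0.44 ± 0.35. None of these 6 genes reached 2-fold.

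Of the 3 brain Adam genes without the zinc-binding site, Adam11 had signals of 115 and 99.9 and differed by -0.41 ± 0.21, and Adam22 and Adam23 were not above background. The second Adam11 probe gave -0.22 ± 0.21. Of the 16 other Adam genes, mostly known from testis and some of them with the zinc-binding site, 9 were above background, 3 of them as bounds. Their differences lay between -0.46 and 0.47 and none reached 2-fold. Most were near the floor of the arrays, and the brightest signals among them were those of Adam1a (77.3 and 74.2) and Adam4 (63.8 and 91.6). Adam5, Adam7, Adam18, Adam21, Adam24, Adam29 and Adam32 were above background on neither array.

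The inhibitor genes were all within 2-fold. Timp1 had signals of 25342 and 28279 and differed by -0.06 ± 0.20, and its other 2 probes ran from -0.08 to -0.06. Timp2, which also takes part in Mmp2 activation by Mmp14, had signals of 22820 and 21941, a difference of -0.27 ± 0.20. Timp3, which is bound to the matrix and also inhibits Adam17 and Adamts enzymes, had signals of 1823 and 2290 and differed by 0.11 ± 0.20. Timp4 was dim, with signals of 24.1 and 30.6 and a difference of 0.13 ± 0.30. Of the 4 genes 3 differed by less than their measurement error while Timp2 exceeded its own. The sign of Timp1 turned to 0.03 with median scaling, and that of Timp4 was just below 0 with normexp correction.

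Fap and Dpp4 code for related membrane peptidases that cut after proline, and in the RefSeq order only Gcg lies between them on chromosome 2. Fap, a marker of activated fibroblasts, had signals of 7.56, which was not above background, and 231 (62432993 to 62433052). Against the lowest EGFP signal above background Fap was 19.2-fold higher (a log2 difference of 1.92 with normexp). The same probe as measured differed by 4.72 ± 0.50, and a second probe on another cDNA was not above background on either array, with signals of 2.14 and 4.03. Dpp4 went the other way, with signals of 31.04 and 22.84 and a difference of -0.66 ± 0.26, or 1.58-fold lower (-0.16 with normexp). Another Dpp4 probe, above background on the EGFP array only, was at least 1.36-fold lower. Gcg, the glucagon gene, was not above background, and on the far side of Fap the genes Ifih1 and Gca differed by -0.37 ± 0.20 and -0.01 ± 0.20. Within this stretch Fap was the 1 gene that reached 2-fold. The 7 other prolyl dipeptidase genes of the fixed list were all above background and within 2-fold, from -0.50 for Dpp10 to 0.27 for Dpp9.

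Genes with several probes allow a check within each array pair. For 16 genes at least 2 probes were measured on both arrays, and the 2 brightest had the same sign in 14. Their gap had a median of 0.20, close to the measurement error, and was larger than the combined error in 5 genes (Adam33, Adamts2, Adamts9, Mmp17 and Mmp1a). The largest gap, 0.92, was that of Adamts9. The genes whose signs differed, Adam15 and Mmp16, lay within their errors of 0. Of the 7 genes at least 2-fold different, Mmp10 has 1 probe, Fap and Mmp28 have 1 probe above background, and Mmp1a, Adamts9, Adam19 and Adam33 have a second measured probe of the same sign. Of the 50 genes above background, 8 were read by a probe designed on a cDNA outside RefSeq, among them Adamts9, Adam33 and Mmp28.

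**Figure D4:**
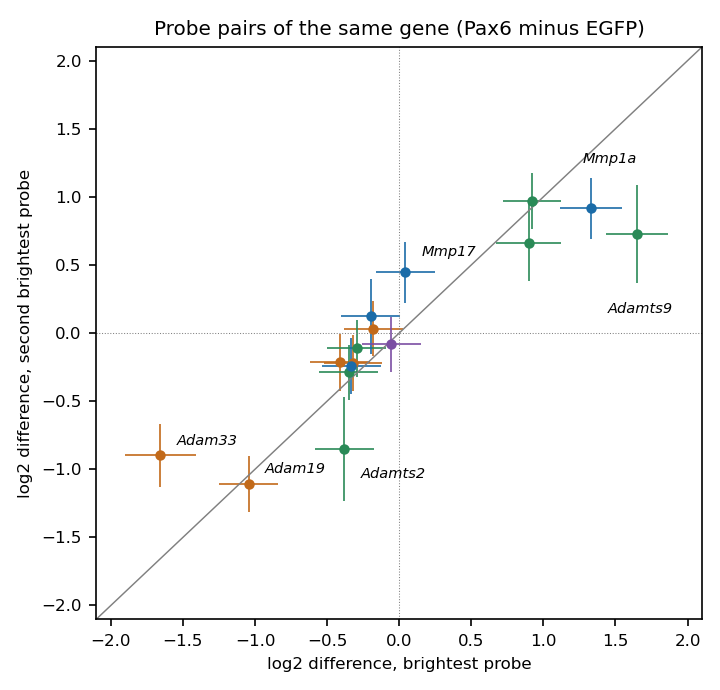
Log2 difference of Pax6 minus EGFP at the brightest probe (horizontal) and at the second brightest probe (vertical) of the 16 genes with several probes measured on both arrays, with bars for the measurement error and a diagonal of equality. The gap is over the combined error in 5 of the 16, and among these the brightest probe gives the larger difference for Adamts9 (1.65 against 0.73), Adam33 (-1.66 against -0.90) and Mmp1a (1.33 against 0.91) and the smaller one for Adamts2 (-0.38 against -0.85) and Mmp17 (0.04 against 0.45).

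Genes that activate or restrain these proteases also differed in both directions. Of 21 such genes 18 were above background, 3 of them higher with Pax6 by at least 2-fold and 2 lower, with a median of 0.07. Plau, the gene of urokinase, which makes plasmin and so helps to activate Mmp precursors, had signals of 862 and 2254 and differed by 1.17 ± 0.20, or 2.25-fold. Plaur, the urokinase receptor gene, had signals of 3418 and 8804 and differed by 1.15 ± 0.20. Both were higher on the Pax6 array, and Plat, the gene of the tissue plasminogen activator, differed by 0.69 ± 0.20. Tspan33, of the tetraspanins that escort Adam10, was 2.08-fold higher, and the other Tspan genes of the list above background lay between -0.19 and 0.10. The lower genes were Pcsk6, a proprotein convertase gene (2.77-fold, signals of 119 and 49.9), and Serpine2, the gene of protease nexin 1 (2.36-fold, signals of 111 and 54.8). Furin, which cuts the propeptide of membrane-type Mmp and Adam precursors, differed by 0.30 ± 0.20, Reck, a membrane inhibitor of Mmp enzymes, by 0.55 ± 0.34, and Bsg, an inducer of Mmp genes, by -0.07 ± 0.20.

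Among astacin proteases and Adamts-like proteins, which share domains with Adamts enzymes, 11 of 14 genes were above background. Of these, 3 were higher with Pax6 by at least 2-fold and 0 lower, beside 2.35% and 2.36% of all genes above background. Adamtsl3 had signals of 54.0 and 184 and was 2.94-fold higher, and Thsd4, a fibrillin-binding Adamts-like gene, had signals of 274 and 865 and was 2.72-fold higher. The astacin gene Tll1, with signals of 6.19, not above background, and 26.1, was at least 2.17-fold higher (1.12 ± 0.59). Values with normexp are not given for the genes of this list, of the other lists or for the markers, dim ones such as Adamtsl3 included. Bmp1, the procollagen C-proteinase gene, differed by 0.21 ± 0.20, and its enhancer genes Pcolce and Pcolce2 by 0.31 ± 0.20 and 0.66 ± 0.20.

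Known substrates were mixed. Of 20 membrane proteins shed by Adam10 or Adam17, 19 were above background, 2 were higher with Pax6 by at least 2-fold (Cx3cl1 and Nrg1, both with a difference of 1.14) and 1 lower (the E-cadherin gene Cdh1, 10.6-fold). The median was -0.07. The shares among all genes above background were 2.35% higher and 2.36% lower by at least 2-fold. The receptor genes Notch1 and Notch2 differed by -0.10 ± 0.21 and -0.13 ± 0.20, and the ligand genes of the EGF receptor lay between -0.66 for Btc and 0.68 for Epgn. Of the lectican proteoglycans cut by Adamts enzymes, Acan had signals of 21.6 and 21.5, Ncan and Bcan were not above background, and Vcan was not analysed here.

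Several of these genes are also expressed by fibroblasts, epithelia or blood cells, so the markers of those cells on the same arrays are given. All 10 fibroblast markers were above background, 3 of them higher with Pax6 by at least 2-fold (Dcn, 7.71-fold, Col3a1, 3.80-fold, and Pdgfra, 3.78-fold) and 3 lower (Col1a1, 5.03-fold, Col1a2, 2.27-fold, and Thy1, at least 4.21-fold). Their summed signals were 257848 and 294132, most of it from S100a4 (162949 and 231549) and Col1a2 (90871 and 46506). All sums in this paragraph are of signals before division by the 75th percentiles, 854 and 991, so they are not differences after scaling. Of 8 epithelial markers 6 were above background and all 6 were at least 2-fold lower on the Pax6 array, with summed signals of 60046 and 25346, and Cldn4 and Ocln were above background on neither. Of 9 blood cell markers on the array 3 were above background (Cd14, Cd68 and Mpo, from -0.52 to -0.02), with summed signals of 574 and 500.2, and Ptprc, Csf1r, Aif1, Itgam, Adgre1 and Lyz2 were above background on neither. Of 8 endothelial markers 4 were above background, with summed signals of 52.8 and 62.0, and Pecam1, Cdh5, Emcn and Tie1 were above background on neither. Of 7 smooth muscle markers 3 were lower with Pax6 by at least 2-fold (Cnn1, Tagln and Des), with summed signals of 19261 and 19531, and of 6 neuronal markers 1 was (Snap25, 3.15-fold). The part of other cell types in the differences of the protease genes was not tested. In bulk RNA, fewer cells of a type and less RNA per cell cannot be told apart.

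Several differences were smaller under an alternative that changed the background correction to normexp, added an offset of 50 to the signals and normalized by quantiles. Under it 2 genes remained at least 2-fold higher, Fap (1.92) and Mmp10 (1.44), and 1 at least 2-fold lower, Mmp28 (-1.73), out of 49 genes above background, where 1.48% of all genes were at least 2-fold different. Mmp1a (0.77), Adamts9 (0.97), Adam19 (-0.89) and Adam33 (-0.44) were then within 2-fold. Averaging the probes of a gene gave 0.85 for Adamts9 and -0.70 for Adam19. All 7 genes kept their direction under every alternative that gave them a value, and with median scaling Adamts1 passed 2-fold while Adam19, at -0.96, no longer did.

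**Figure D5:**
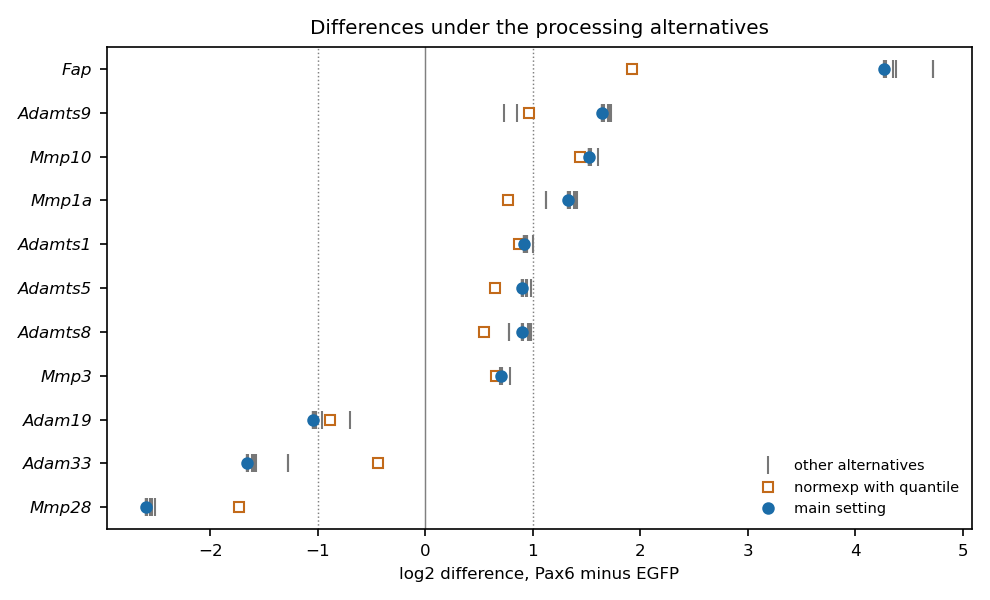
Log2 difference of Pax6 minus EGFP for 11 genes under the main setting (filled circles), normexp correction with quantile normalization (open squares) and the other alternatives (vertical ticks), with dotted lines at 2-fold. The genes keep their side of 0, and with normexp Fap moves from 4.27 to 1.92 and Adam33 from -1.66 to -0.44, while Mmp10 and Mmp3 hardly move.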

How the data were processed

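Total RNA of 2 lines was labelled with Cy3 and hybridised to 1 Agilent whole mouse genome array each, per the labels' protocols. Spot values come from Feature Extraction 10.7.3.1 (Agilent), per the file headers. The authors deposited each spot's intensity after that software's background subtraction and spatial detrending, with no normalization between arrays. The deposited flags (unit other) mark spots above background, saturated or outlying. Probe positions are those of the array design (mm7), for which no gene models were used, so exons are not stated.

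Outlier spots were left out (51 and 52, of which 1 on each array, of Mmp9), log2 signals were scaled to the 75th percentile, spots were averaged, and the probe brightest on average stood for its gene. A probe counted as above background when more than 50% of its spots did. Where 1 array was dim, the difference was taken against the lowest signal above background (10.3 and 9.72) or the dim value, whichever was higher. Such values are called bounds here, or given as "at least", and enter medians and counts. A bound is not a strict minimum, as it leaves out the measurement error. Some EGFP signals over 10.3, such as 11.8 for Mmp19, were also not above background. Measurement errors include a multiplicative part of 10%. Probe accessions gave current symbols for 22951 of 41168 probes. Adam6 is the array's name for Adam6a. Alternatives used limma 3.58.1 in R 4.3.3, other steps Python 3.11.15. The steps were tested on a copy of the EGFP array with planted changes. These changes were larger than the differences of Adam19 and Mmp1a. They lay in genes brighter on the EGFP array than Mmp1a, Adamts9, Adam33 and Fap. The test therefore does not cover dim genes or bounds.

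Values were given for every gene at least 2-fold different, each Timp and membrane-type Mmp gene, Mmp2, Mmp9, Adam10, Adam17, Fap and Dpp4, and the brightest gene of each class, with others named as examples. The genes, lists and rules were chosen with earlier results of these data known. Neighbouring genes (2 on each side in the RefSeq order) and promoter motifs were chosen after the values were seen.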

Additional observations from a re-analysis of the deposited data

How the results depend on the processing

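The number of genes higher with Pax6 by at least 2-fold was 2 with normexp correction and 2 with a rule of at least 3-fold, in place of 4, and the number of lower genes was 1 with normexp correction, in place of 3. The fewer genes under the 3-fold rule follow from its construction, and the cause of the change under normexp correction, which came with an offset of 50 and quantile normalization, was not tested. The other alternatives listed at the start (median scaling, quantile normalization, cyclic loess, mean or median of probes, no filter or one on both arrays, the deposited series table, and a rule that also asked for 2 times the error) gave between 3 and 6 genes higher and between 2 and 4 lower. The 6 and 4 came without a filter, out of 72 genes, where 8.82% of all genes were at least 2-fold different. That share was 4.00% with the filter on both arrays. For the rest it lay between 4.54% (mean of probes) and 4.71% (series table), and it was not counted for the rule on the error. 2 alternatives were chosen after seeing the data, scaling by the spike-in controls and using dim values without a bound. Each gave 4 and 3, beside 4.68% and 6.61% of all genes at least 2-fold different. The median of the group lay between -0.17 without a filter and 0.02 with median scaling. Without a filter Adam23, Adam29 and Adamts15, all at background, passed 2-fold. Among values of single named genes under the alternatives, 344 moved by less than the measurement error and 16 by more, and 0 genes at least 2-fold different changed sign. Many of the 344 could not move, so their number is no measure of stability. The series table repeated the same values, and the filters left genes measured on both arrays unchanged. Averaging left genes with 1 probe above background unchanged. The 16 came from normexp correction and from the mean or median of probes only. The small differences of Mmp13, Mmp24, Timp1 and Timp4 changed sign under some alternatives. No paired analysis was possible because each line has 1 array. Dim genes, with signals near 10, carry errors of 0.3 or more, and 1 array per line limits every value.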
